A study of Mus musculus with 30 samples.

Results

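The 10 genes described here are the core circadian activators Arntl (also written Bmal1) and Npas2, the repressors Per1, Per2, Per3, Nr1d1 and Nr1d2, and the output transcription factors Dbp, Tef and Hlf. They were taken by name from the 78919 genes listed in either of 2 count tables of mouse heart RNA, and all 10 were found in both tables. Hearts came from wild-type (WT) mice or from mice with the S55L point mutation of CHCHD10, a protein of the mitochondrial intermembrane space. Naive mice of the postpartum study were kept to an age of 100 days, and postpartum (PP) mice of the same study were mated at 65 days and their hearts taken 0 days after birth. The diet study held S55L mice alone, all postpartum, which ate control chow or chow with EH301, a supplement of nicotinamide riboside and pterostilbene, while they bred. The labels name no time of day for the killing, no strain and no allele detail beyond the mutation. Nor do they tie each library to its own animal, and the p-values below therefore rest on the spread of libraries, part of which may be technical.

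Each of the 6 groups had 5 deposited columns. WT PP 1 and 2 were identical, S55L PP 1 and 2 likewise, and each pair counted once. The same column stood under control diet 5 and EH301 diet 6 and was not used. That left 5 WT naive, 4 WT PP, 5 S55L naive, 4 S55L PP, 4 control diet and 4 EH301 diet libraries. S55L libraries of the postpartum study were mostly deeper, with 2755500 to 5131316 reads on genes against 1418715 to 2949993 for WT, and their share of reads on genes was larger, 66.3% to 69.2% against 58.3% to 61.6%. Genotype and plate position ran together: by the well in each column name, every WT library but WT PP 1 came from plate column 1, and every S55L library from column 2 or 3. The part of depth and of read share in the genotype differences was not tested, and values with plate column as a term stand beside the results.

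The clock of mammalian cells is a loop of transcription and repression. ARNTL pairs with CLOCK or with its relative NPAS2 and binds E-box sequences in the Per, Cry, Nr1d and Dbp genes. PER proteins, together with CRY proteins, then shut that activator down. NR1D1 and NR1D2 (REV-ERB alpha and beta) are nuclear receptors that bind ROR response elements (ROREs) and repress Arntl and Npas2. DBP, TEF and HLF are leucine zipper proteins of the PAR family that carry the rhythm to other genes through D-box sequences, including Per genes. In the heart as in liver, transcripts of the E-box and D-box genes peak at times of day when Arntl is low, and the cardiac clock times fuel use and contraction.

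To show where these inputs can be read in the DNA, promoter windows were taken from RefSeq (mouse build GRCm38.p6), each with 250 bases before and 50 bases after an annotated start. Of the 10 genes 9 had a window, with 12 windows in all, and Per2 had none in the table. Both strands were searched for the E-box CACGTG, its variant CACGTT, the D-box TTANGTAA and the RORE. The E-box stood in 7.15% of all 32851 windows of that length, CACGTT in 4.68%, the D-box in 2.32% and the RORE in 0.384%. A match was found for 5 of the 9 genes. The windows below carry those matches in capitals and belong to one gene of each role, an activator, a pair of repressors and an output factor. Arntl is on the plus strand at chr7:113207261-113207560, Per1 on the plus strand at chr11:69098699-69098998, Per3 on the minus strand at chr4:151044616-151044915 and Tef on the plus strand at chr15:81802423-81802722.
Arntl: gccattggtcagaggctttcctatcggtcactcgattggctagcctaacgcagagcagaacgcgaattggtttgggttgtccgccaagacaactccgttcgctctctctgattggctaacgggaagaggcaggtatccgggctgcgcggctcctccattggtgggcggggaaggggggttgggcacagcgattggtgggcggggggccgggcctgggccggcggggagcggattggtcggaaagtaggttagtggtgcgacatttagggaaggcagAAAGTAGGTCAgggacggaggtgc
Per1: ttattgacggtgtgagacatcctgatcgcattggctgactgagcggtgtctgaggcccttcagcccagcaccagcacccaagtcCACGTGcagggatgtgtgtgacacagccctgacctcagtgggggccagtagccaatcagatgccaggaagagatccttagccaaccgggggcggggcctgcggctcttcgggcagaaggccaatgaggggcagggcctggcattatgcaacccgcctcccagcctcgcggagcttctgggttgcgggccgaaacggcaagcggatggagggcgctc
Per3: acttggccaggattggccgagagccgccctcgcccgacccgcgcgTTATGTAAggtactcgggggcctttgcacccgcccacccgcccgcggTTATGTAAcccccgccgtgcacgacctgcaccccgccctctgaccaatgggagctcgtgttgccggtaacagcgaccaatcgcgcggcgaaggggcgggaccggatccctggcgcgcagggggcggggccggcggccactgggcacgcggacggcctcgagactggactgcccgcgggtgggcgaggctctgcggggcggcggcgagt
Tef: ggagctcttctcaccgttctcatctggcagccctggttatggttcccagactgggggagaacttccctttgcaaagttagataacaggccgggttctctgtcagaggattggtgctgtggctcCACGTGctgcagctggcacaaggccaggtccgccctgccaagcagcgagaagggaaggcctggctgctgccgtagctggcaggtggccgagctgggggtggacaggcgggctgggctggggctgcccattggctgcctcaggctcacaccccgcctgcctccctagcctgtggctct
The Arntl window, from the downstream of its 2 annotated starts, has a RORE that begins 27 bases after that start, the element that NR1D proteins bind. The Per1 window shown has an E-box 166 bases before the start. The Per3 window has 2 D-boxes of the same letters, 205 and 158 bases before the start. The Tef window has an E-box 127 bases before the start, and the window of the other Tef start has one at 138 bases. The Nr1d1 window holds the CACGTT variant 28 bases before the start. No match was found in the windows of Npas2, Nr1d2, Dbp and Hlf, nor in those of the other start of Arntl and of Per1. That says only that these letters are not in those 300 bases. A match is not evidence of binding in these hearts.

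In naive hearts the output factors and 2 of the repressors were lower in S55L than in WT. Dbp and Hlf were about 6-fold lower, Nr1d1 2.81-fold, Per3 2.39-fold and Tef 2.04-fold lower. The same 5 genes were lower in S55L than in WT among postpartum hearts, from 2.12-fold for Tef to 6.63-fold for Hlf. Arntl was not called in either comparison, and its estimate lay above 0 in both. Transcripts of clock genes change over the day, and the labels do not say whether both genotypes were killed at the same time. The part of time of day in the genotype differences was not tested. Counts were tested with the edgeR quasi-likelihood test over 11945 genes that passed a filter on low counts, with Benjamini-Hochberg adjustment over all of them and a threshold of 0.05, which is what "called" means throughout. Levels are in CPM, counts scaled to a common library size after normalisation, and fold changes are on the log2 scale with their standard error (SE).

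Of the 10 genes 9 passed the filter in the postpartum study, all but Npas2. In naive hearts 5 of these 9 were called lower and 0 higher, where 21.6% of all tested genes were called lower, 21.9% higher and 43.5% in either direction. Their median log2 difference was -1.03, beside -0.0039 over all genes. In postpartum hearts 5 of 9 were called lower and 0 higher, with 15.2% of all genes called lower, 16.3% higher and 31.5% in either direction. The median there was -1.30, beside -0.000681 over all genes. In both comparisons 8 of the 9 estimates were below 0. The libraries of the 2 genotypes did not overlap, with S55L lower, for 6 of the 9 genes in naive hearts (15.4% of all genes) and for 5 in postpartum hearts (11.7% of all genes).

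**Figure D1:**
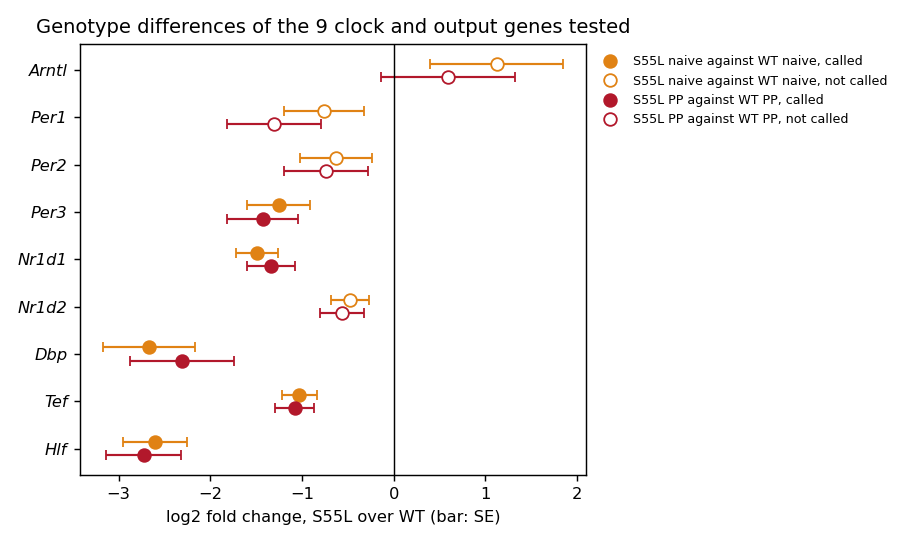
Log2 fold change of S55L over WT (x axis) for the 9 clock and output genes tested, in naive hearts (orange) and postpartum hearts (red); bars are the SE, filled points are called at an adjusted p of 0.05 and open points are not. Dbp and Hlf lie farthest from 0, between -2.31 and -2.73, and Arntl is the one gene to the right of 0.

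Dbp (ENSMUSG00000059824) encodes the best known clock output factor, a direct target of the ARNTL complex. Its level was 175, 188, 173, 154 and 197 CPM in the 5 WT naive libraries and 39.6, 36.6, 42.8, 11.9 and 7.20 CPM in the 5 S55L naive libraries. In postpartum hearts it was 193, 128, 135 and 57.7 CPM in WT and 36.6, 6.52, 41.7 and 19.0 CPM in S55L. Every S55L library was below every WT library in both states, and the WT library nearest to them was WT PP 5. The difference was -2.67 (SE 0.50, edgeR adjusted p = 0.00059) in naive and -2.31 (SE 0.57, edgeR adjusted p = 0.0056) in postpartum hearts. Within S55L, libraries fell apart: S55L naive 4 and 5 and S55L PP 3 had under 12 CPM, and the rest 19.0 CPM or more.

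Hlf (ENSMUSG00000003949), a second PAR factor, differed by about as much with less spread. WT naive libraries had 41.7, 53.1, 34.5, 32.1 and 35.6 CPM, and S55L naive libraries 10.6, 7.68, 6.47, 5.12 and 1.74 CPM. WT PP libraries had 54.8, 25.7, 37.4 and 15.1 CPM, and S55L PP libraries 7.55, 3.60, 4.31 and 4.68 CPM. The lowest WT library, again WT PP 5, was still above the highest S55L library. The difference was -2.60 (SE 0.35, edgeR adjusted p = 6.4e-06) in naive and -2.73 (SE 0.41, edgeR adjusted p = 3.6e-05) in postpartum hearts. The S55L values rest on few reads, 8 to 51 counts per library.

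Tef (ENSMUSG00000022389) encodes the PAR factor with the shallower rhythm in most tissues. It had 77.3, 108, 82.5, 77.4 and 93.0 CPM in WT naive hearts, and 50.0, 47.5, 56.6, 36.7 and 22.7 CPM in S55L naive hearts. It had 88.1, 88.2, 79.1 and 52.7 CPM in WT PP hearts, and 33.5, 29.4, 39.3 and 43.0 CPM in S55L PP hearts. The genotypes were apart in both states, with the narrowest gap again at WT PP 5. The difference was -1.03 (SE 0.19, edgeR adjusted p = 0.00011) in naive and -1.08 (SE 0.22, edgeR adjusted p = 0.00035) in postpartum hearts.

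Nr1d1 (ENSMUSG00000020889), the REV-ERB alpha repressor of Arntl, had 69.0, 40.0, 73.1, 63.1 and 51.0 CPM in WT naive hearts. In S55L naive hearts it had 24.6, 18.4, 31.4, 15.1 and 15.9 CPM. Postpartum levels were 29.4, 58.1, 38.7 and 59.9 CPM in WT and 21.0, 11.7, 22.9 and 18.1 CPM in S55L. All S55L libraries lay below all WT libraries of the same state, but WT PP 5, which was low for the PAR factors, was the highest WT PP library here. The difference was -1.49 (SE 0.23, edgeR adjusted p = 1.2e-05) in naive and -1.34 (SE 0.26, edgeR adjusted p = 0.00033) in postpartum hearts. Nr1d2 (ENSMUSG00000021775), its paralog REV-ERB beta, was at 62.1 ± 13.2 CPM (SD, n = 5) in WT naive, 44.6 ± 7.17 CPM (n = 5) in S55L naive, 47.9 ± 15.9 CPM (n = 4) in WT PP and 32.3 ± 10.3 CPM (n = 4) in S55L PP hearts. Its difference of -0.48 (SE 0.21, edgeR adjusted p = 0.062) in naive and -0.56 (SE 0.24, edgeR adjusted p = 0.070) in postpartum hearts missed the threshold, although the naive genotypes did not overlap. It was called in naive hearts by limma voom (-0.46, adjusted p = 0.032), with only the compared groups fitted with edgeR (-0.49, adjusted p = 0.012) and without WT naive 4 (-0.55, adjusted p = 0.046). It was called in postpartum hearts by limma voom (-0.73, adjusted p = 0.012), with all deposited columns (-0.69, adjusted p = 0.011), without WT PP 5 (-0.78, adjusted p = 0.0075) and without S55L PP 4 (-0.79, adjusted p = 0.015). The other alternatives, 18 of 21 in naive and 14 of 18 in postpartum hearts, left Nr1d2 uncalled. Among them were DESeq2 (adjusted p = 0.074 and 0.080) and plate column as a term (edgeR adjusted p = 0.18 and 0.31).

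Per3 (ENSMUSG00000028957) was the Per gene with the called difference. It had 58.2, 71.0, 77.8, 64.2 and 72.7 CPM in WT naive hearts, and 33.4, 34.1, 39.2, 19.0 and 17.2 CPM in S55L naive hearts. It had 91.0, 72.0, 74.3 and 25.5 CPM in WT PP hearts, and 22.9, 9.89, 41.5 and 23.1 CPM in S55L PP hearts. Naive genotypes were apart, while in postpartum hearts WT PP 5 fell below S55L PP 4. The difference was -1.26 (SE 0.34, edgeR adjusted p = 0.0072) in naive and -1.43 (SE 0.39, edgeR adjusted p = 0.0097) in postpartum hearts.

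Per1 (ENSMUSG00000020893), the Per gene that also answers directly to glucocorticoid and cAMP signals, was less even. It had 29.9, 19.6, 12.9, 13.8 and 25.7 CPM in WT naive hearts, and 21.3, 20.4, 8.70, 7.39 and 1.74 CPM in S55L naive hearts. Naive genotypes overlapped, with a difference of -0.76 (SE 0.43, edgeR adjusted p = 0.17). Postpartum hearts did not overlap, at 19.95, 13.4, 18.7 and 18.6 CPM in WT and 9.22, 5.17, 5.65 and 9.04 CPM in S55L. That difference was -1.30 (SE 0.51, edgeR adjusted p = 0.062), just short of the threshold. Postpartum libraries of the 2 genotypes with the same number were correlated in their deviations. With the replicate number as a block over the libraries of all 4 groups, Per1 was called (-1.30, edgeR adjusted p = 0.035). It was also called by DESeq2 (adjusted p = 0.021), by limma voom (adjusted p = 0.034), with all deposited columns (edgeR adjusted p = 0.022) and with the 2 groups fitted alone (edgeR adjusted p = 0.0017). Per1 stayed uncalled in 13 of 18 postpartum alternatives. Among them were plate column as a term (-1.14, edgeR adjusted p = 0.50) and the log2 CPM of Arntl as a term (-0.99, edgeR adjusted p = 0.14). Per2 (ENSMUSG00000055866) was at 17.1 ± 6.41 CPM (SD, n = 5) in WT naive, 10.9 ± 5.39 CPM (n = 5) in S55L naive, 13.7 ± 7.28 CPM (n = 4) in WT PP and 8.18 ± 2.31 CPM (n = 4) in S55L PP hearts. Its difference was -0.63 (SE 0.39, edgeR adjusted p = 0.21) in naive and -0.74 (SE 0.46, edgeR adjusted p = 0.23) in postpartum hearts, and the genotypes overlapped in both. Without WT PP 5, at 3.95 CPM the lowest WT library, the postpartum difference was -1.09 (edgeR adjusted p = 0.041). In 17 of 18 postpartum alternatives Per2 stayed uncalled, among them with plate column as a term (-1.05, edgeR adjusted p = 0.43).

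Arntl (ENSMUSG00000055116) had 4.12, 1.63, 3.51, 4.02 and 2.97 CPM in WT naive hearts, and 2.29, 3.93, 2.01, 10.5 and 18.3 CPM in S55L naive hearts. It had 2.18, 3.35, 0.604 and 11.1 CPM in WT PP hearts, and 4.47, 12.6, 4.58 and 6.24 CPM in S55L PP hearts. Most libraries lay under 7 CPM in every group, and 4 stood above 10 CPM: WT PP 5, S55L naive 4 and 5, and S55L PP 3. The difference was 1.12 (SE 0.73, edgeR adjusted p = 0.23) in naive and 0.59 (SE 0.73, edgeR adjusted p = 0.58) in postpartum hearts, so its SE was wider than that of any other of the 9 genes. Counts were low, from 1 in WT PP 4 to 84 in S55L naive 5. Npas2 (ENSMUSG00000026077), the partner of ARNTL that REV-ERB proteins repress along with Arntl, had 0 to 12 counts per library and failed the filter. Its level was 0.908 ± 0.735 CPM (SD, n = 5) in WT naive, 1.38 ± 1.15 CPM (n = 4) in WT PP, 1.58 ± 0.814 CPM (n = 5) in S55L naive and 1.70 ± 0.513 CPM (n = 4) in S55L PP hearts. Fitted with no filter, it differed by 0.84 (SE 0.63, edgeR adjusted p = 0.40) in naive and 0.34 (SE 0.61, edgeR adjusted p = 0.84) in postpartum hearts.

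**Figure D2:**
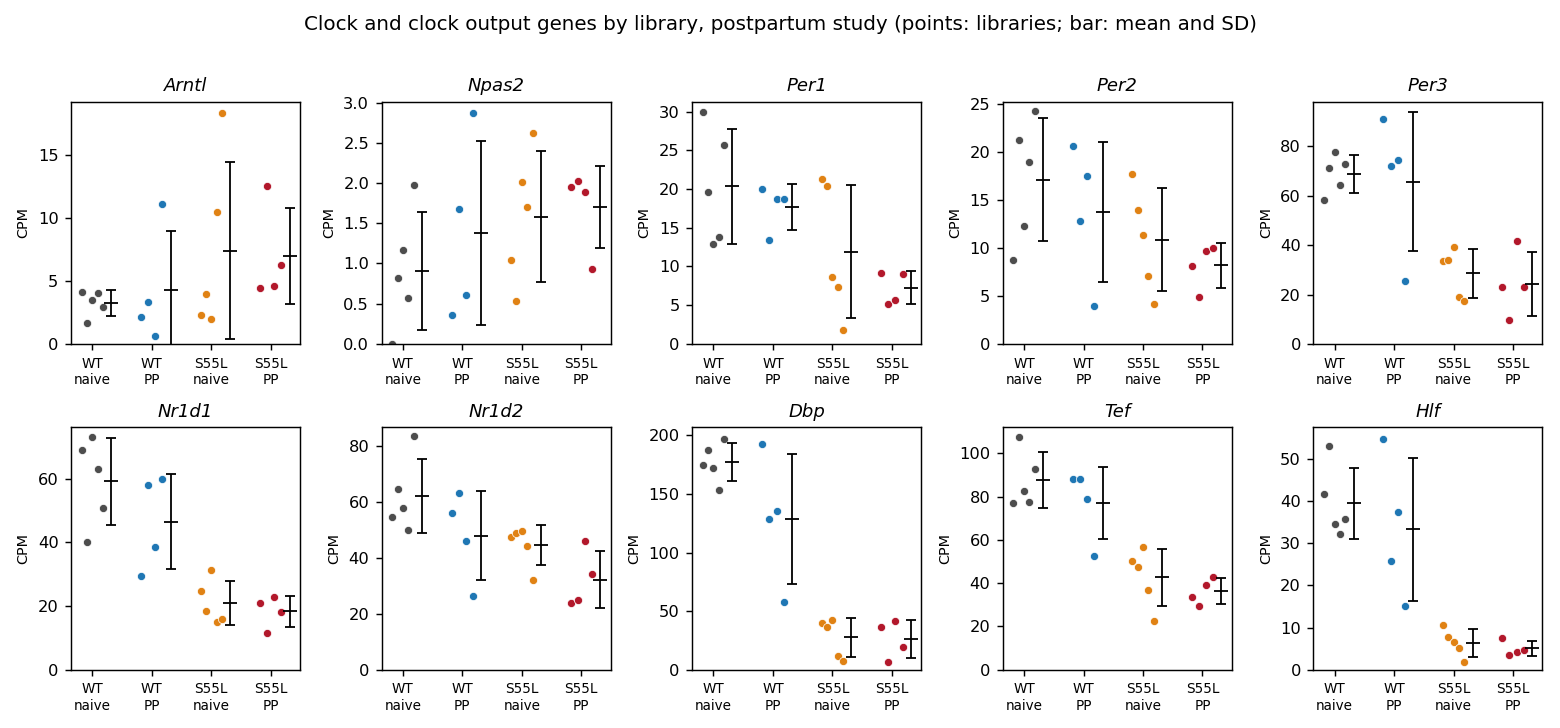
CPM (y axis, from 0, own scale per gene) of each of the 10 clock and output genes in the 18 libraries of the postpartum study, with points for libraries and bars for the mean and SD of each group. Dbp, Tef, Hlf and Nr1d1 of S55L hearts lie below those of WT hearts in both states, while Arntl is under 7 CPM in all but 4 libraries.

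For 8 of the genes, all but Arntl and Npas2, the 4 group means had one order, highest in WT naive, then WT PP, S55L naive and S55L PP. Dbp means ran 177 ± 16.6, 129 ± 55.4, 27.6 ± 16.7 and 26.0 ± 16.2 CPM in that order, and Hlf means 39.4 ± 8.42, 33.2 ± 17.0, 6.33 ± 3.27 and 5.03 ± 1.74 CPM (SD, n = 5, 4, 5 and 4). Within a genotype the neighbours in that order did not differ beyond their spread. WT PP against WT naive called 0 of the 9 genes with edgeR, and 0 at an unadjusted p under 0.05, where 0.0167% of all genes were called and 756 genes (6.33%) had such a p. The estimates lay between -0.46 for Dbp (SE 0.50) and 0.48 for Arntl (SE 0.85). S55L PP against S55L naive called 0 of the 9 genes and 0% of all genes with edgeR, while 747 genes (6.25%) had an unadjusted p under 0.05. Nr1d2 was the 1 clock gene among these, at -0.47 (SE 0.22). All 9 estimates of that comparison were below 0, the farthest that of Per1 at -0.75 (SE 0.48). DESeq2 and limma voom called 0 of the 9 genes in both comparisons, with 12 and 4 of all genes called for WT and 18 and 22 for S55L.

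Whether the genotype difference itself differed between naive and postpartum hearts was tested as an interaction. With edgeR 0 of the 9 genes were called and 0% of all genes, with 444 genes (3.72%) at an unadjusted p under 0.05 and 0 of the 9 among them. DESeq2 called 1 gene of all and limma voom 0, and neither called one of the 9. Estimates lay between -0.54 for Per1 (SE 0.67) and 0.35 for Dbp (SE 0.73). The SE of Arntl, 1.05, was wider still, so for these genes differences larger than the estimates lie within the error.

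Plate column could be separated from genotype only through WT PP 1, in column 2, and S55L PP 5, in column 2 with the S55L naive libraries. Within column 2, WT PP 1 had 193 CPM of Dbp, 54.8 of Hlf, 88.1 of Tef and 91.0 of Per3, above all 6 S55L libraries of that column for each of these genes. For Nr1d1 its 29.4 CPM lay within the S55L range. With plate column as a term in the edgeR fit, naive hearts kept 3 of the 5 calls: Dbp -3.53 (adjusted p = 0.017), Tef -1.30 (adjusted p = 0.016) and Hlf -3.71 (adjusted p = 0.00020). Per3 was then at -1.95 (edgeR adjusted p = 0.057) and Nr1d1 at -0.65 (edgeR adjusted p = 0.31). In postpartum hearts Hlf alone was called, at -3.54 (edgeR adjusted p = 0.0035). There Dbp was at -3.34 (edgeR adjusted p = 0.075), Tef at -1.03 (adjusted p = 0.094), Per3 at -1.98 (adjusted p = 0.11) and Nr1d1 at -0.70 (adjusted p = 0.36). Estimates of Dbp, Hlf and Per3 moved away from 0 with that term while their SEs grew, and that of Nr1d1 moved toward 0. In naive hearts these shifts rest on WT PP 1, a column also deposited as WT PP 2, against WT PP 3, 4 and 5. Dbp had 193 CPM in WT PP 1 against 128, 135 and 57.7 CPM, and Nr1d1 29.4 CPM against 58.1, 38.7 and 59.9 CPM.

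S55L naive 3, 4 and 5 carry a 4-digit number in their column names where the other libraries of the study carry a shorter one, and the labels do not say what it stands for. Without these 3 libraries, a choice made after the values were seen, Dbp differed by -2.21 (edgeR adjusted p = 0.0097), Hlf by -2.09 (adjusted p = 0.00023), Tef by -0.83 (adjusted p = 0.0050) and Nr1d1 by -1.46 (adjusted p = 0.00056). Per3 was no longer called, at -1.02 (SE 0.44, edgeR adjusted p = 0.093). That fit holds 2 S55L naive libraries. Arntl was then at -0.076 (SE 0.64), Per1 at 0.027 (SE 0.28) and Per2 at -0.096 (SE 0.41), so the naive estimates of these 3 genes, none of them called, rested on those libraries.

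Markers of several cell types differed by genotype too. Over all genes 21.6% were called lower and 21.9% higher in naive hearts, and 15.2% and 16.3% in postpartum hearts. Of 8 cardiomyocyte markers 7 were called lower in naive and 6 in postpartum S55L hearts. Their summed level was 57120 to 74970 CPM in naive and 57130 to 72780 CPM in postpartum WT libraries, against 37590 to 50230 CPM in naive and 30320 to 39380 CPM in postpartum S55L libraries. Of 8 fibroblast markers 6 and 7 were called higher (1069 to 1421, 1167 to 1551, 1797 to 2464 and 2104 to 2997 CPM in the same order), and of 8 macrophage markers 8 and 7 (146.8 to 189.4, 200.2 to 316.5, 635.9 to 922.7 and 659.3 to 930.9 CPM). Of 8 endothelial markers 3 and 2 were called lower, counts near the 43.5% and 31.5% of all genes called in either direction. Of 8 smooth muscle and pericyte markers 1 was called higher and 6 lower in naive hearts, and 1 higher and 4 lower in postpartum hearts. Of 5 erythroid markers tested 3 and 0 were called lower. The summed level of the smooth muscle and pericyte markers went the other way from most of their calls, at 841.7 to 1058 CPM in naive and 724.7 to 1025 CPM in postpartum WT libraries, against 1732 to 3681 CPM and 1599 to 2266 CPM in S55L libraries. Of 7 adipocyte markers 1 could be tested and was not called, and Ucp1 was at 0 in every library. The part of cell makeup in the clock gene differences was not tested, and in whole hearts fewer cells of a type and less RNA per cell cannot be told apart. Chchd10, the mutated gene itself, was at 2719 ± 227.2 CPM (SD, n = 5) in WT naive and 4501 ± 715.2 CPM (n = 5) in S55L naive hearts (0.73, SE 0.19, edgeR adjusted p = 0.0028). In postpartum hearts it was not called (0.29, SE 0.21, edgeR adjusted p = 0.31), and a count of its reads does not check the point mutation.

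Exons of 4 of the genes overlap a gene on the other strand: Nr1d1 overlaps Thra, Dbp overlaps Sphk2, Arntl overlaps Gm45355 and Tef overlaps Gm17597. The strand setting of the counting is not given in the sources used here, so reads of such pairs may not be told apart. Thra, a thyroid hormone receptor, differed by -0.07 (SE 0.14, edgeR adjusted p = 0.70) in naive and -0.34 (SE 0.16, edgeR adjusted p = 0.093) in postpartum hearts. Sphk2, a sphingosine kinase, differed by 0.48 (SE 0.24, edgeR adjusted p = 0.11) and -0.05 (SE 0.26, edgeR adjusted p = 0.91). Neither partner was called in these comparisons, where Nr1d1 and Dbp were. Values of Gm45355 and Gm17597 were not read. The part of overlapping reads in the differences was not tested, and the level of a partner gene cannot show it.

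Taken over the 4 groups together, libraries of one group differed from each other more for the clock genes than for most genes. This was not so in every group. In WT naive hearts Dbp (177 ± 16.6 CPM) and Per3 (68.8 ± 7.66 CPM) varied little (SD, n = 5). In WT PP hearts they were at 129 ± 55.4 CPM and 65.7 ± 28.1 CPM (n = 4). Per1 (20.4 ± 7.41 CPM) and Per2 (17.1 ± 6.41 CPM) varied more in WT naive hearts. The biological coefficient of variation is the spread between libraries of a group beyond counting error, here 1 estimate over all 4 groups. It was 0.661 for Arntl, above 99.7% of the 11945 genes, 0.536 for Dbp (above 99.3%) and 0.459 for Per1 (above 98.7%). Per2, Per3 and Hlf followed at 0.406, 0.366 and 0.353, above 97.7%, 96.3% and 95.6% of genes. Nr1d1 (0.239), Nr1d2 (0.220) and Tef (0.208) lay nearer to the value over all genes, 0.199.

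**Figure D3:**
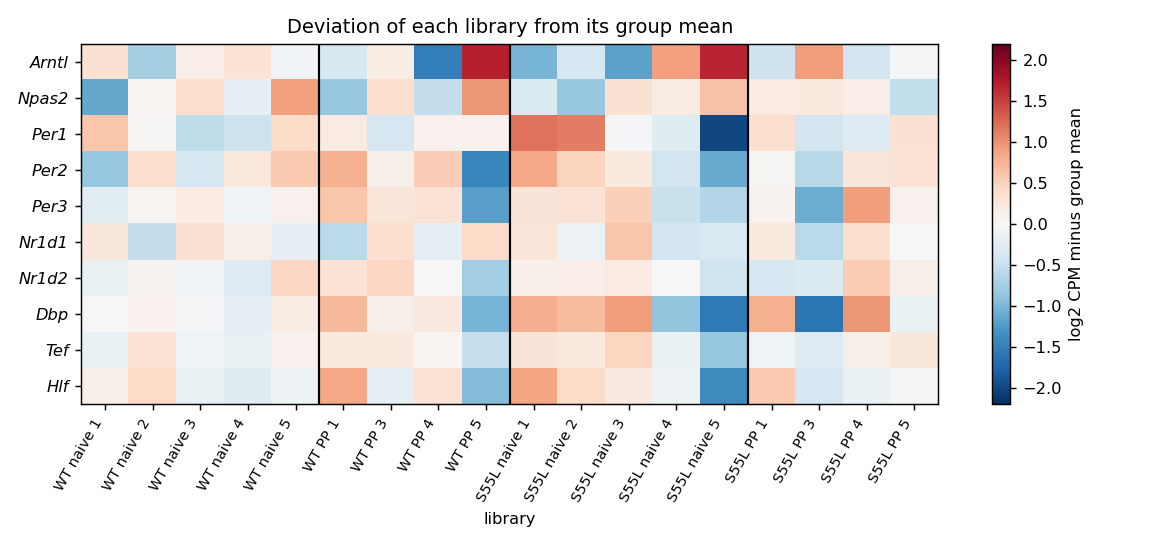
Log2 CPM of each clock and output gene minus its group mean (colour, red above and blue below) in each library of the postpartum study, with black lines between the 4 groups. WT PP 5, S55L naive 5 and S55L PP 3 are red for Arntl and blue for Per2, Per3, Dbp, Tef and Hlf.

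The deviations had a shared pattern, in which libraries high in Arntl were low in the output genes. WT naive libraries could show little of it for Dbp (-0.20 to 0.16) and Per3 (-0.23 to 0.18), while Per2 ranged from -0.83 to 0.58 there. Arntl had 2 to 8 counts in those libraries. In WT PP 5, Arntl was 1.71 above its group mean on the log2 CPM scale, while Per3 was at -1.20, Dbp at -1.02 and Hlf at -0.96. In S55L naive 5, Arntl was 1.67 above the mean, with Per3 at -0.64, Dbp at -1.55 and Hlf at -1.38. In S55L PP 3, Arntl was 0.91 above the mean, with Per3 at -1.08, Dbp at -1.60 and Hlf at -0.38. These libraries were chosen after their values were seen.

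Over the 18 libraries, with group means removed, the correlation with Arntl was tested for the 9 other genes by permutation of libraries within groups (100000 resamples, two-sided) and adjusted over the 9. Dbp had r = -0.84 (p = 0.00055, adjusted p = 0.0022) and rho = -0.85 (p = 0.00016, adjusted p = 0.0014). Per2 had r = -0.84 (p = 0.0005, adjusted p = 0.0022) and rho = -0.75 (p = 0.0032, adjusted p = 0.0058), and Tef r = -0.84 (p = 0.00073, adjusted p = 0.0022) and rho = -0.76 (p = 0.0025, adjusted p = 0.0057). Hlf had r = -0.82 (p = 0.0016, adjusted p = 0.0029) and rho = -0.78 (p = 0.0010, adjusted p = 0.0046), and Per3 r = -0.81 (p = 0.0011, adjusted p = 0.0025) and rho = -0.76 (p = 0.0025, adjusted p = 0.0057). Nr1d2 was weaker, with r = -0.58 (p = 0.032, adjusted p = 0.049) and rho = -0.49 (p = 0.071, adjusted p = 0.11). Per1 had r = -0.54 (p = 0.061, adjusted p = 0.078) and rho = -0.43 (p = 0.094, adjusted p = 0.12), Npas2 r = 0.43 (p = 0.13, adjusted p = 0.15) and rho = 0.36 (p = 0.21, adjusted p = 0.23), and Nr1d1 r = -0.14 (p = 0.64, adjusted p = 0.64) and rho = -0.09 (p = 0.78, adjusted p = 0.78). The 2 libraries farthest from the Arntl median were WT PP 5 and S55L naive 5. Without them r was -0.75 for Dbp, -0.69 for Per2, Per3 and Tef and -0.64 for Hlf, whereas Nr1d2 fell to -0.26, Per1 to -0.39 and Npas2 to 0.14, and Nr1d1 was at -0.25. The r of Nr1d2 thus rests on those libraries.

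**Figure D4:**
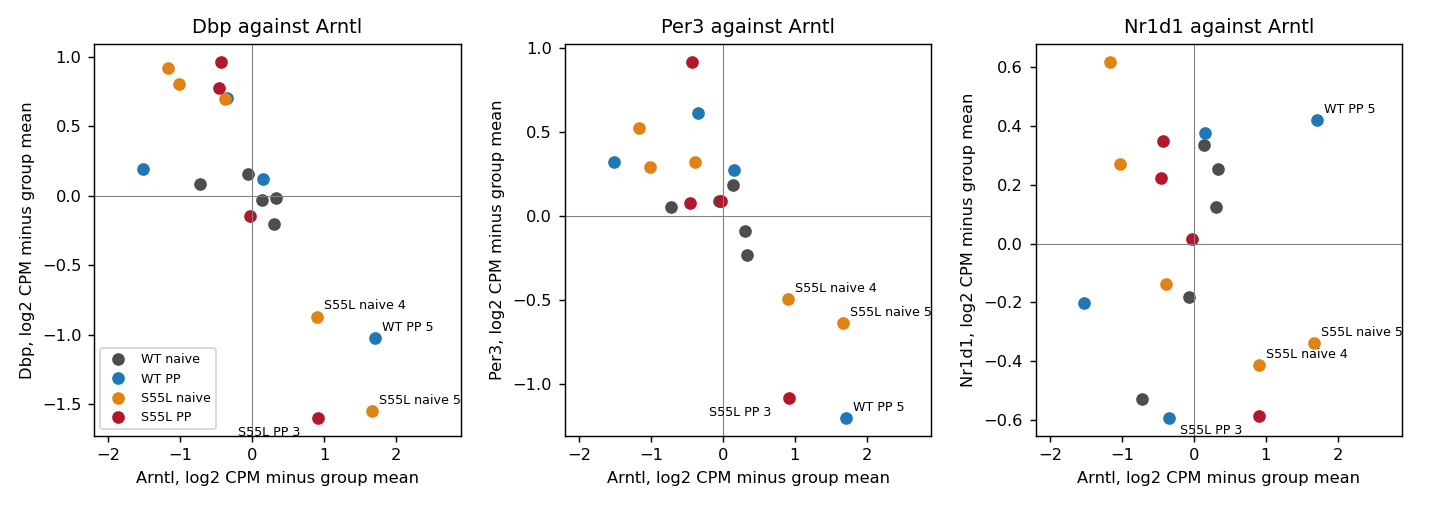
Log2 CPM minus group mean of Dbp, Per3 and Nr1d1 (y axes) against that of Arntl (x axis) in the 18 libraries of the postpartum study, coloured by group. For Dbp and Per3 the 4 named libraries sit at the lower right, with r = -0.84 and -0.81, while for Nr1d1 WT PP 5 sits at the upper right and r is -0.14.

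Within plate column 1 (8 libraries) and column 2 (7 libraries), r with Arntl was -0.83 and -0.97 for Dbp, -0.82 and -0.91 for Per3, -0.81 and -0.87 for Per2, -0.76 and -0.94 for Tef and -0.90 and -0.84 for Hlf. For Nr1d1 it changed sign, from 0.73 in column 1 to -0.66 in column 2, and for Per1 it was -0.04 and -0.80. Column 3 held 3 libraries, too few for a value.

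Since Arntl varied so much between libraries, the genotype fit was also run with the log2 CPM of Arntl as a term, a choice made after the values were seen. The same 5 genes were called. In naive hearts Dbp was at -2.46 (SE 0.29, edgeR adjusted p = 2.1e-06), Hlf at -2.38 (SE 0.24, adjusted p = 9.9e-09), Nr1d1 at -1.47 (SE 0.24, adjusted p = 3.3e-05), Per3 at -1.01 (SE 0.21, adjusted p = 0.00051) and Tef at -0.88 (SE 0.15, adjusted p = 2.7e-05). The SE of Dbp fell from 0.50 to 0.29. In postpartum hearts Dbp was at -1.69 (edgeR adjusted p = 0.00061), Hlf at -2.15 (adjusted p = 2.2e-06), Nr1d1 at -1.30 (adjusted p = 0.00088), Per3 at -0.93 (adjusted p = 0.0055) and Tef at -0.78 (adjusted p = 0.00087). The estimates of these 5 genes lay nearer to 0 than without the term in both naive and postpartum hearts. Per2 moved to -0.03 (SE 0.32) in postpartum hearts. Arntl itself rests on 1 to 84 counts per library, and its part in the genotype differences cannot be read from this fit.

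Among 7355 other genes whose mean reached 10 CPM, those whose deviations over the 18 libraries were most like those of Dbp included Usp2 (r = 0.82), Lrrc27 (0.82) and Ube2m (0.81). Usp2 encodes a deubiquitinase known as a clock output. The most opposite were Prmt3 (-0.81), Satb1 (-0.81) and Ndrg1 (-0.80). Most like Arntl were Mdfic (0.82), Polr3d (0.80), Spin1 (0.80) and Fra10ac1 (0.79), and among the most opposite were Pla2g15 (-0.80) and Lrrc27 (-0.79). These r are among the highest and lowest of 7355, and in the 8 diet libraries the r with Dbp was -0.77 for Usp2, -0.76 for Lrrc27 and -0.75 for Ube2m, so these 3 genes did not keep their sign. Of the opposite genes, Prmt3 (0.72) and Ndrg1 (0.73) turned as well, and Satb1 (-0.835) kept its sign. Control diet 1, with 3 counts of Dbp, lay farthest from its group mean of Dbp, at -1.26. Its part in these r was not tested.

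Other genes of the pathway were read from lists by role. Of 9 tested genes of the remaining clock loop, 1 was called higher and 3 lower in naive S55L hearts, with a median of -0.32, a count near the 43.5% of all genes called. The count was 0 in postpartum hearts, with a median of -0.14 (edgeR; 0 at an unadjusted p under 0.05, and 0 called by DESeq2 or limma voom). Cry2, a repressor that pairs with PER proteins, fell from 27.2 ± 7.83 CPM (SD, n = 5) to 14.2 ± 3.46 CPM (n = 5), a difference of -0.92 (SE 0.20, edgeR adjusted p = 0.00067), and lost its call with plate column as a term (-1.02, adjusted p = 0.081). Nfil3, which competes with the PAR factors for D-boxes, rose by 1.01 (SE 0.33, edgeR adjusted p = 0.016). It lost its call in 5 of 21 alternatives, among them without S55L naive 5 (0.77, adjusted p = 0.063), WT naive 4 (0.84, adjusted p = 0.055) or WT naive 5 (0.79, adjusted p = 0.066). Bhlhe40, a repressor of the ARNTL complex, was lower (-0.51, SE 0.19, edgeR adjusted p = 0.032) and lost its call in 9 of 21 alternatives.

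Of 14 tested genes that modify clock proteins, 2 were called higher and 4 lower in naive and 3 higher and 0 lower in postpartum S55L hearts, beside 43.5% and 31.5% of all genes called in either direction. The naive count is thus near that of all genes. Cipc, a CLOCK-interacting repressor, rose by 1.06 (SE 0.17, edgeR adjusted p = 1.9e-05) and 0.96 (SE 0.19, adjusted p = 0.00031). Csnk1d, a casein kinase that phosphorylates PER proteins, rose by 0.67 (SE 0.16, edgeR adjusted p = 0.0018) and 0.63 (SE 0.18, adjusted p = 0.0091), whereas its paralog Csnk1e fell by 1.22 in naive hearts (SE 0.20, adjusted p = 2.5e-05). Ncor1, the corepressor of REV-ERB proteins, fell by 0.77 in naive hearts (SE 0.17, edgeR adjusted p = 0.00056). Prkaa2, an AMP-activated kinase subunit that acts on CRY proteins, rose by 0.45 in postpartum hearts (SE 0.14, edgeR adjusted p = 0.016) and lost its call in 6 of 18 alternatives, among them without S55L PP 5 (0.36, adjusted p = 0.063), WT PP 3 (0.40, adjusted p = 0.056) or WT PP 4 (0.40, adjusted p = 0.060).

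Of 17 tested clock-controlled genes of the heart, 2 were called higher and 10 lower in naive S55L hearts (21.9% and 21.6% of all genes), with a median of -0.45. In postpartum hearts 0 were called higher and 8 lower (16.3% and 15.2% of all genes), with a median of -0.63. Usp2 fell from 302 ± 31.1 CPM (SD, n = 5) to 131 ± 25.5 CPM (n = 5) in naive and from 308 ± 32.8 CPM (n = 4) to 120.1 ± 28.9 CPM (n = 4) in postpartum hearts. Its differences were -1.21 (SE 0.16, edgeR adjusted p = 8.4e-07) and -1.36 (SE 0.18, adjusted p = 1.2e-06). Pik3r1, a PI3-kinase regulatory subunit, fell by 1.53 and 1.98 (edgeR adjusted p = 3.4e-06 and 9.6e-07). Klf15, a regulator of cardiac nitrogen and lipid rhythms, fell from 33.5 ± 2.26 CPM to 11.9 ± 5.95 CPM (SD, n = 4 each, edgeR adjusted p = 0.00053) in postpartum hearts, and Dgat2, an enzyme of triglyceride synthesis, fell by 1.89 (SE 0.49, adjusted p = 0.0081). Wee1, a cell cycle kinase with E-boxes in its promoter, rose from 7.31 ± 3.39 CPM to 20.2 ± 7.80 CPM in naive hearts (SD, n = 5 each, edgeR adjusted p = 0.00023). Ucp3, a mitochondrial carrier, was lower in S55L naive hearts (-1.63, SE 0.19, edgeR adjusted p = 1.5e-07) and was the one listed gene called between WT PP and WT naive hearts (-2.14, SE 0.23, adjusted p = 7.0e-06).

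Glucocorticoid-responsive genes, read because Per1 and other clock genes answer to that hormone, were mixed. Of 10 tested, 2 were called higher and 2 lower in naive hearts, near the 43.5% of all genes called, and 2 higher and 3 lower in postpartum hearts, beside 31.5% of all genes. Klf9 fell by 0.97 (SE 0.17, edgeR adjusted p = 6.5e-05) and 1.07 (SE 0.20, adjusted p = 0.00011), and Zbtb16 from 14.7 ± 5.88 CPM to 4.79 ± 4.90 CPM and from 15.6 ± 7.72 CPM to 3.89 ± 2.82 CPM (adjusted p = 0.042 and 0.036). The metallothionein genes Mt1 and Mt2 rose in naive hearts, by 1.63 and 2.43 (edgeR adjusted p = 0.00024 and 0.00065), and Mt2 rose by 1.44 in postpartum hearts (adjusted p = 0.036). Zbtb16 lost its calls in 12 of 21 naive and 10 of 18 postpartum alternatives, and Mt2 its postpartum call in 10 of 18. With plate column as a term, Wee1 (adjusted p = 0.089), Klf15 (adjusted p = 0.34), Dgat2 (adjusted p = 0.18) and Cipc (adjusted p = 0.10 in naive and 0.065 in postpartum hearts) were no longer called by edgeR.

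The table of the diet study lists another set of genes and was fitted alone. In that study the clock genes did not differ between EH301 and control diet beyond the spread of 4 libraries a group. With edgeR 0 of the 9 genes tested and 0% of 10335 genes were called, and 0 of the 9 were among the 137 genes (1.33%) at an unadjusted p under 0.05. DESeq2 called 0 genes and limma voom 1, which is not one of the 9. Estimates lay between -0.19 for Dbp (SE 0.35) and 0.35 for Tef (SE 0.31). The ranges of the 2 diets overlapped for every gene. Column names of the diet study hold 2 codes of the form of a well, the first the same in all of them. By the second code, all used EH301 libraries came from plate column 3 and all control libraries from columns 1 and 2. On that reading diet and plate column cannot be told apart.

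Dbp had 6.67, 28.3, 24.3 and 18.4 CPM on control diet and 14.5, 10.7, 18.8 and 28.7 CPM on EH301 diet. Hlf had 2.22, 7.55, 6.99 and 15.8 CPM on control diet and 7.27, 7.78, 13.7 and 13.0 CPM on EH301 diet. Tef had 84.5, 181, 176 and 195 CPM on control diet and 144, 257, 165 and 255 CPM on EH301 diet. The first control library was the lowest for all of these, and with 466651 reads on genes it was also the shallowest, with 3 counts of Dbp and 1 of Hlf. Nr1d1 had 107, 55.5, 53.2 and 50.3 CPM on control diet and 54.0, 90.5, 51.3 and 83.4 CPM on EH301 diet, and here the first control library was the highest. Nr1d2 had 35.6, 111, 96.8 and 98.6 CPM on control diet and 87.5, 114, 87.6 and 137 CPM on EH301 diet.

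Among the activators and Per genes, Arntl had 6.67, 9.44, 6.65 and 3.75 CPM on control diet and 5.88, 9.73, 5.73 and 4.47 CPM on EH301 diet. Npas2 passed the filter here, at 4.45 to 8.65 CPM on control diet and 4.87 to 10.03 CPM on EH301 diet. Per1 ranged from 8.90 to 31.0 CPM and from 12.1 to 32.8 CPM, and Per2 from 20.6 to 40.0 CPM and from 13.6 to 38.7 CPM, on control and EH301 diet. No library stood above 10 CPM of Arntl, and the coefficient of variation of Arntl, 0.245, was above that of 45.0% of genes, against 99.7% in the postpartum study. The r with Arntl over the 8 libraries was -0.21 for Dbp, -0.36 for Per2, -0.52 for Hlf and -0.01 for Tef, given as a description.

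Per3 was listed at 0 in all 8 diet libraries, against 24.3 ± 13.0 CPM (SD, n = 4) in S55L PP hearts of the postpartum study. A count of 0 over the 8 libraries allows up to 0.163 CPM, 3 counts over all of them, for counting error only. Of 7775 genes whose mean reached 10 CPM in the postpartum study 228 (2.93%) were listed at 0 in the diet study, among them Vamp3, a gene next to Per3 that was picked out after its values were seen. In S55L PP libraries of the postpartum study Vamp3 was at 128.3 to 202.0 CPM. The tables list different sets of genes, 78258 and 56691, and the annotation behind each is not given. Whether the 0 reflects the counting or the hearts was not tested.

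**Figure D5:**
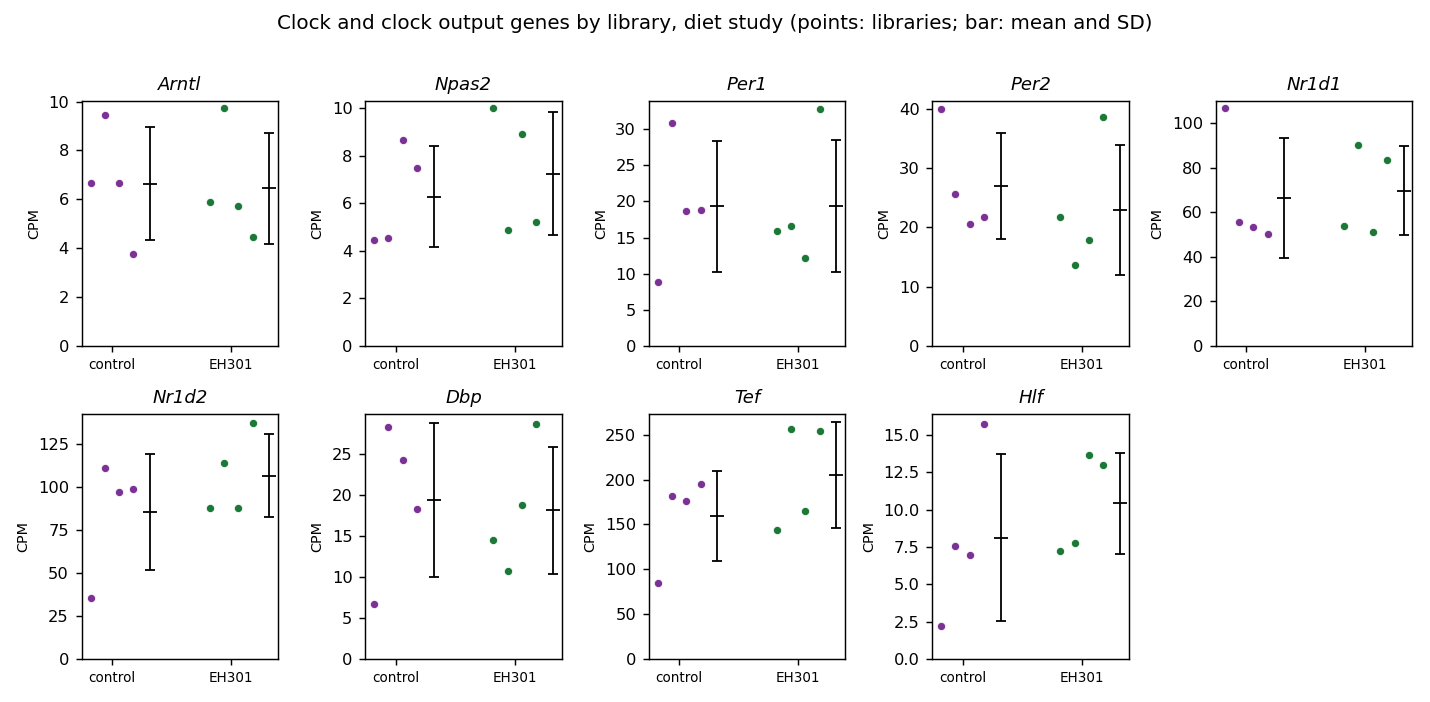
CPM (y axis, from 0, own scale per gene) of 9 clock and output genes in the 4 control diet and 4 EH301 diet libraries, with points for libraries and bars for the mean and SD; Per3, at 0 in all, is not drawn. The diets overlap for each gene, and the first control library is apart for Nr1d1 (107 CPM) and Tef (84.5 CPM).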

How the data were processed

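Heart RNA (Qiagen RNeasy Mini kit) was sequenced as 3' mRNA libraries of the Lexogen QuantSeq FWD kit, per the labels' protocols. The files hold raw counts per gene, deposited by the authors, who trimmed reads with Trimmomatic 0.39, aligned them with STAR 2.7.0f to GRCm39.p6 and counted them with HTSeq 0.6.1, per the submitters' processing notes, which name DESeq2 3.21 as well. Annotation release, strand setting and counting mode are not given in the sources used here. There are 78258 genes in the postpartum table and 56691 genes in that of the diet study, and each was fitted alone. Symbols came from GENCODE M21 by Ensembl ID (51487 and 52073 IDs, holding 99.4% and 99.8% of reads on genes). HTSeq summary lines were kept out of all sizes and tests. In the postpartum study multiple alignments made up 17.5% to 27.3%, ambiguous reads 4.45% to 7.08% and reads outside genes 5.65% to 10.1%. In the diet study they made up 35.2% to 39.1%, 1.97% to 2.50% and 1.43% to 1.74%.

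Every pair of columns was compared: apart from the identical ones, the lowest chi-square per gene was 2.37 (postpartum) and 5.49 (diet). Genes were filtered with filterByExpr and scaled by trimmed means (TMM), and 18 and 8 libraries were fitted with edgeR 4.0.16 (quasi-likelihood, robust) in R 4.3.3. SE is the fold change over the square root of F. Log2 CPM used a prior count of 2. Correlations used scipy 1.17.1. Common coefficients of variation were 0.199 and 0.299.

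The genes, lists and tests were chosen with earlier results of these data known. Named are all 10 genes, up to 4 called genes of each list with the lowest adjusted p, and the genes most like and unlike Dbp and Arntl (4 and 3); a few genes that meet these rules are not reported here. Alternatives were DESeq2 1.42.0, limma 3.58.1 voom with quality weights, DESeq2 size factors, total counts, no filter, plate column, replicate number as a block, only the groups compared, all deposited columns, the shared diet column kept under either diet, no diet libraries under 1200000 reads, and each library left out. Deviations of postpartum WT and S55L libraries with the same number were correlated (r = 0.119 to 0.333 over 4 pairs), though what a number means is not in the labels. In an alternative the number was a block over all 18 libraries, the naive ones included. Every other combination of groups had a pair under 0.1. WT PP libraries were most like the S55L naive library of their own number in 4 of 4 pairs, against 3 of 4 with S55L PP.

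On counts simulated from these libraries with 200 genes changed, 67.7% of 2-fold changes were recovered for naive genotypes (11708 genes), 50.8% for postpartum genotypes (11751 genes) and 19.4% for the diets (10126 genes), and 98.5%, 89.4% and 88.7% of 4-fold changes. Of 1.5-fold changes 16.9%, 14.9% and 0% were recovered, in the same order. In the data far more genes were called between genotypes, 43.5% in naive and 31.5% in postpartum hearts, and the adjustment depends on that share. The changed genes were drawn from all those tested, so the rates are not those of the clock genes.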

Additional observations from a re-analysis of the deposited data

Results flagged for a closer look

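In groups of 4 or 5 libraries, 58 sets of values were checked for a library far from the others by Dixon's test, and 2 were found, where chance gives about 1 in 20. Npas2 in S55L PP 5 was lowest at 0.935 CPM, with the nearest library at 1.89 CPM and a gap of 0.874 of the range. That value rests on 3 counts. Nr1d1 in control diet 1 was highest at 106.8 CPM, with the nearest library at 55.5 CPM and a gap of 0.907 of the range. That library has 466651 reads on genes and 48 counts of Nr1d1. Its part in the Nr1d1 value was not tested.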

How the results depend on the processing

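Limits: Arntl and Npas2 had few reads, 1 to 84 and 0 to 12 counts per library of the postpartum study, and 4 or 5 libraries a group bound the precision. The time of day of killing is not in the labels, so its part in any group difference could not be tested. Fold changes in the genotype comparisons shifted with scaling: with total counts the median of all genes was 0.24 in naive and 0.27 in postpartum hearts, beside -0.0039 and -0.000681, with 73.0% and 78.0% of calls higher, against 50.3% and 51.8%. The 5 genes kept their calls and direction under that scaling. Leaving out 1 library left at least 3 in a group, and leaving out those with 4-digit numbers left 2 S55L naive libraries.

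The genotype calls of Dbp, Tef, Hlf, Per3 and Nr1d1 held in all alternatives but those named in the report, plate column as a term and, for Per3 in naive hearts, the 3 libraries with 4-digit numbers left out. With plate column as a term edgeR called 2873 genes and 3 of the clock genes in naive and 2108 and 1 in postpartum hearts. Leaving out 1 library gave 4564 to 4967 genes and 5 to 6 clock genes in naive, and 3086 to 4146 and 5 to 7 in postpartum hearts. The replicate block gave 6 clock genes in postpartum hearts, with Per1 added, and changed no other call of the 9 genes. For WT PP against WT naive, DESeq2 called 12 genes, limma voom 4, no filter 21 and plate column 21, and left-out libraries 2 to 10 (10 without WT PP 1). For S55L PP against S55L naive, the Arntl term called 2, DESeq2 18, all deposited columns 10, limma voom 22, no filter 37, the 2 groups alone 3, total counts 3 and plate column 1, and left-out libraries 0 to 2. For the interaction, DESeq2 called 1, no filter 5 and plate column 2, and left-out libraries 0 to 2. For diet, limma voom called 1 and left-out libraries 0. The clock genes gave 0 calls in these 4 comparisons under every alternative run. The causes were not tested.

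Signs that turned were all of uncalled log2 differences. Without the libraries with 4-digit numbers, Arntl was at -0.076 and Per1 at 0.027 in naive hearts, Arntl at 1.16 for S55L PP against S55L naive, and Arntl at 0.68 and Dbp at -0.098 in the interaction. With limma voom, Arntl was at -0.45 for WT PP against WT naive, 0.79 for S55L PP against S55L naive and 1.24 in the interaction, where Nr1d1 was at -0.025 and Dbp at -0.37, and Per2 was at 0.081 for diet. With all deposited columns, Per3 was at 0.038 for WT PP against WT naive and Dbp at 0.0063 for S55L PP against S55L naive. With the replicate block, Arntl was at 0.0099 for S55L PP against S55L naive, and Per2 at 0.030, Tef at 0.0047 and Hlf at 0.039 in the interaction. With total counts, Arntl was at 0.0046 for S55L PP against S55L naive. With the Arntl term, Dbp was at 0.19 for S55L PP against S55L naive, and Per2 at 0.32, Per3 at 0.081, Nr1d2 at 0.0076, Tef at 0.096 and Hlf at 0.23 in the interaction. With plate column, Tef was at 0.0078 for S55L PP against S55L naive, and Per2 at 0.52, Nr1d1 at -0.044, Nr1d2 at 0.11, Tef at 0.27 and Hlf at 0.17 in the interaction. For diet, the shared column kept as EH301 gave Arntl 0.19 and Nr1d1 -0.012, kept as control it gave Per2 0.060, and no libraries under 1200000 reads gave Per2 0.19.

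Over left-out libraries, the ranges that crossed 0 were, for WT PP against WT naive, Arntl -0.67 to 0.78, Per2 -0.65 to 0.020, Per3 -0.29 to 0.21 and Hlf -0.62 to 0.029. For S55L PP against S55L naive they were Arntl -0.52 to 0.65, Per3 -0.64 to 0.023 and Dbp -0.45 to 0.22. In the interaction they were Arntl -1.01 to 0.63, Per2 -0.46 to 0.21, Per3 -0.57 to 0.095, Nr1d1 -0.025 to 0.34, Nr1d2 -0.31 to 0.070, Tef -0.21 to 0.069 and Hlf -0.39 to 0.26. For diet they were Arntl -0.41 to 0.12, Npas2 -0.045 to 0.33, Per1 -0.50 to 0.18, Per2 -0.48 to 0.062 and Nr1d1 -0.032 to 0.38.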
